A study of Mus musculus with 2 samples.

Results

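The genes that encode glutamate receptors and GABA receptors were followed through the glial cells of the neonatal mouse spinal cord. The 38 members were all the genes whose symbols name an AMPA, kainate, NMDA or metabotropic glutamate subunit (Gria, Grik, Grin and Grm followed by a number) or a GABA-A alpha, beta or gamma or GABA-B subunit (Gabra, Gabrb, Gabrg and Gabbr), out of the 32285 genes in the count matrices. They comprised 4 AMPA, 5 kainate, 7 NMDA, 8 metabotropic, 12 GABA-A and 2 GABA-B genes. The rule used symbols alone and no measured value. None of the 38 genes was used to cluster the cells, so levels between clusters did not depend on the genes themselves.

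Single cells from whole spinal cord of FVB mice were captured at postnatal day 4 with droplet chemistry that reads the 3′ end of transcripts. One library came from mice with the spinal muscular atrophy (SMA) genotype, which carry no functional mouse Smn (mSmn-/-) and the human SMN2 transgene (hSMN22tg/0). The other library (Con) came from mice with 1 mouse Smn allele left (mSmn+/-), which carried the same transgene. The cords of several littermates were pooled in each library and cannot be separated, so each genotype was 1 sample and no test between genotypes was possible. Intervals given for levels (exact Poisson), shares (Clopper-Pearson) and ratios (exact conditional binomial) are at 95% and cover counting error only. UMIs of free RNA and of cells of another type are included in every level.

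The libraries held 26921 (SMA) and 25419 (Con) barcodes, and 8163 barcodes were listed in both. Of the Con barcodes with at least 5000 UMIs, 98.98% were also listed in the SMA library, against 2.78% of such SMA barcodes in the Con library, and in these pairs the SMA copy held a median of 17.6% of the UMIs of the Con copy. Shared barcodes were therefore left out of the SMA library, which left 6787 SMA and 8919 Con cells with medians of 6109 and 6229 UMIs. Smn1 stood at 48.1 CPM (UMIs of a gene scaled to 1e+06 UMIs of the class or library) in SMA and 43.8 in Con, so this gene did not separate the libraries, and whether its 3′ tags lie inside the disrupted part was not known here. The genotypes are given as labelled. The cells fell into 29 clusters that were named from marker genes as astrocyte-like, oligodendrocyte progenitor (OPC)-like, committed oligodendrocyte progenitor (COP)-like, oligodendrocyte-like, microglia-like, ependymal-like and Schwann-like, beside vascular, immune, erythroid and a few neuron-like cells. All 14 astrocyte markers stood higher in the astrocyte-like class than in the other classes in both libraries, and so did 9 (SMA) and 10 (Con) of the 10 OPC markers, 8 and 9 of the 10 COP markers, 11 and 10 of the 12 oligodendrocyte markers, 9 and 9 of the 10 microglia markers, 12 and 12 of the 12 ependymal markers and 10 and 9 of the 10 Schwann cell markers in the class of that name.

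Glutamate opens AMPA, kainate and NMDA receptors, which are cation channels, and it also acts on metabotropic receptors that couple to G proteins. GABA opens GABA-A receptors, which are chloride channels built mostly of alpha, beta and gamma subunits, and it acts on GABA-B receptors, which are dimers of Gabbr1 and Gabbr2. Astrocytes take up both transmitters and sense them at synapses, and OPCs receive synaptic input from neurons through AMPA and GABA-A receptors and lose these responses as they mature.

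Receptor transcripts were spread unequally over the glia. Summed over the 38 genes, astrocyte-like cells held 1034 CPM in SMA (1012 to 1055) and 1165 in Con (1146 to 1186), and OPC-like cells held 1134 (1113 to 1155) and 1128 (1106 to 1151). COP-like cells followed with 877 CPM in SMA and 758 in Con. Levels in the remaining glia were lower, at 372 and 391.9 CPM in oligodendrocyte-like, 333 and 319 in ependymal-like, 223 and 229 in Schwann-like and 106 and 104 in microglia-like cells (SMA and Con). Erythroid cells, which should lack these receptors, held 21.7 and 28.6 CPM. The order of the classes was the same in both libraries, except that astrocyte-like cells stood above OPC-like cells in Con and below them in SMA.

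The same order was seen cell by cell. After each cell was thinned to 1000 UMIs, 61.7% of astrocyte-like cells in SMA and 66.8% in Con had a UMI of at least 1 receptor gene. In OPC-like cells the shares were 68.4% and 64.9%, and in COP-like cells 57.1% and 51.0%. Microglia-like cells with a receptor UMI made up 8.14% and 8.62%, against 2.13% and 4.55% of erythroid cells. Without thinning the shares were 33.4% and 36.0% of microglia-like and 17.6% and 20.1% of erythroid cells. Erythroid cells had medians of 9617 and 9663.5 UMIs, so their thinned share may understate the background of shallower cells. Before thinning, 96.95% and 97.1% of the astrocyte-like cells and 98.6% and 97.9% of the OPC-like cells held a receptor UMI. Cells under 1000 UMIs were left out, 2 and 6 of them astrocyte-like and 1 and 0 OPC-like.

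**Figure D1:**
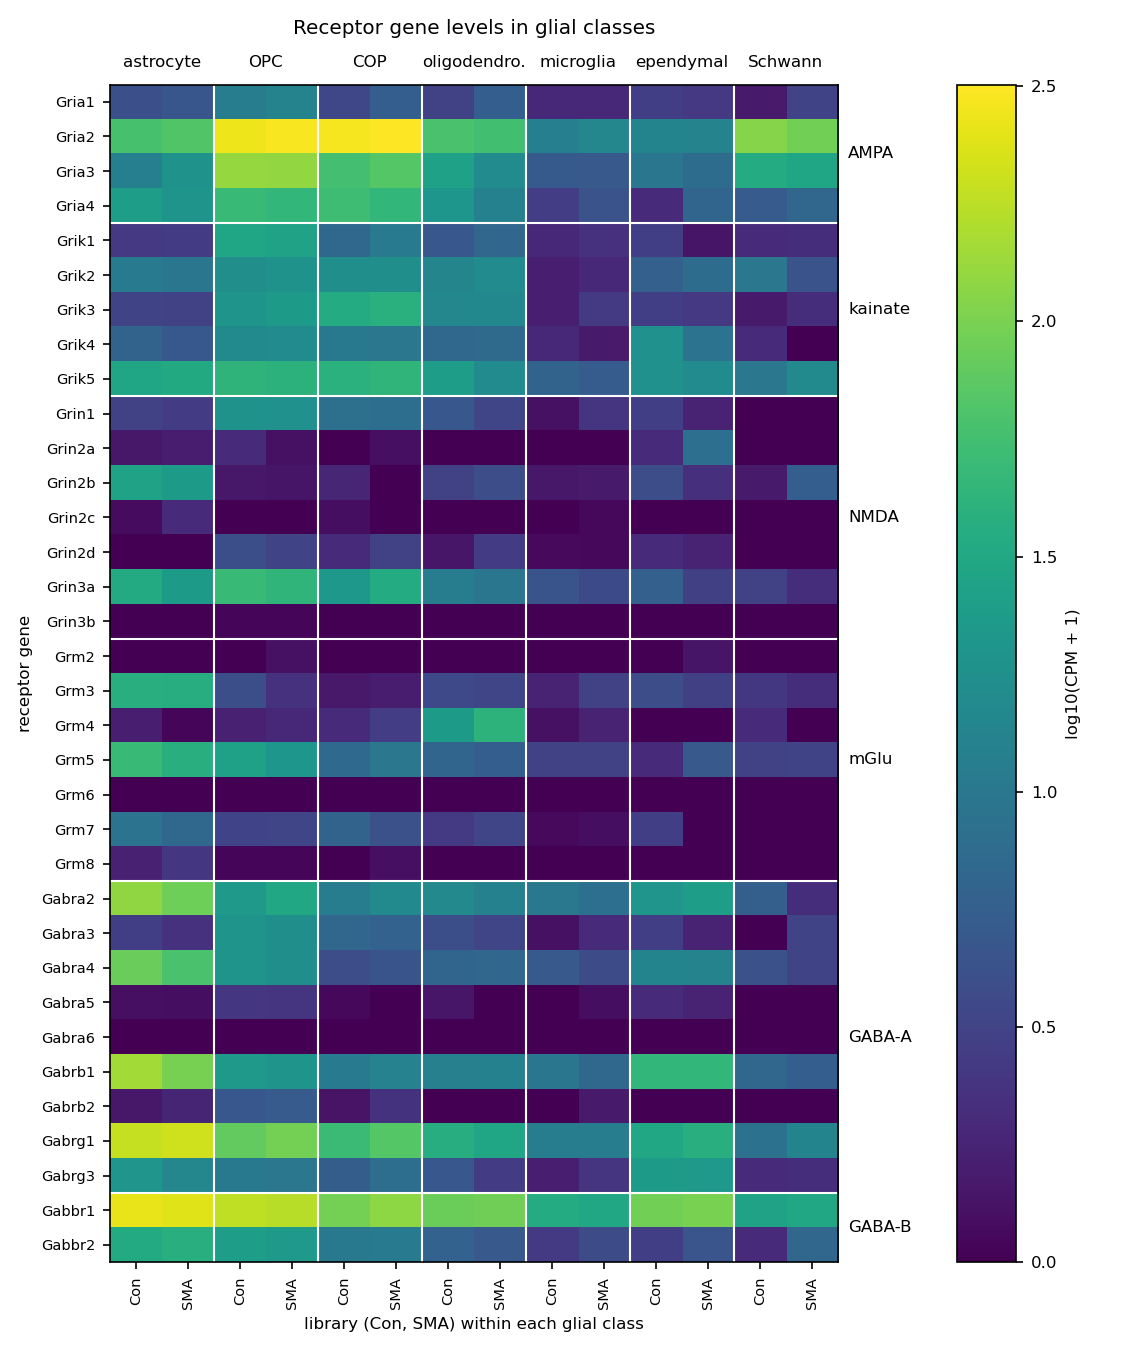
Level of the receptor genes reported (rows, by family) as log10(CPM + 1) in 7 glial classes (columns, Con and SMA side by side). Gria2 is the brightest row in OPC-like and COP-like cells. The rows of Gabrg1, Gabra2, Gabra4 and Gabrb1 are brighter in astrocyte-like cells than in the other classes in both libraries.

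Families divided the classes further. In astrocyte-like cells GABA receptors predominated, with 46.2% (SMA) and 49.1% (Con) of receptor UMIs from GABA-A genes and 26.6% and 25.2% from GABA-B genes. In OPC-like cells 42.1% and 40.7% of receptor UMIs came from AMPA genes, and in COP-like cells 49.6% and 53.4%. Ependymal-like cells resembled the astrocyte-like cells in this respect, with 45.7% and 43.5% of their receptor UMIs from GABA-A genes. Schwann-like cells held mostly AMPA transcripts, 58.2% and 65.1% of 196 and 438 receptor UMIs. NMDA genes gave between 4.61% and 6.36% in astrocyte-like and OPC-like cells.

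**Figure D2:**
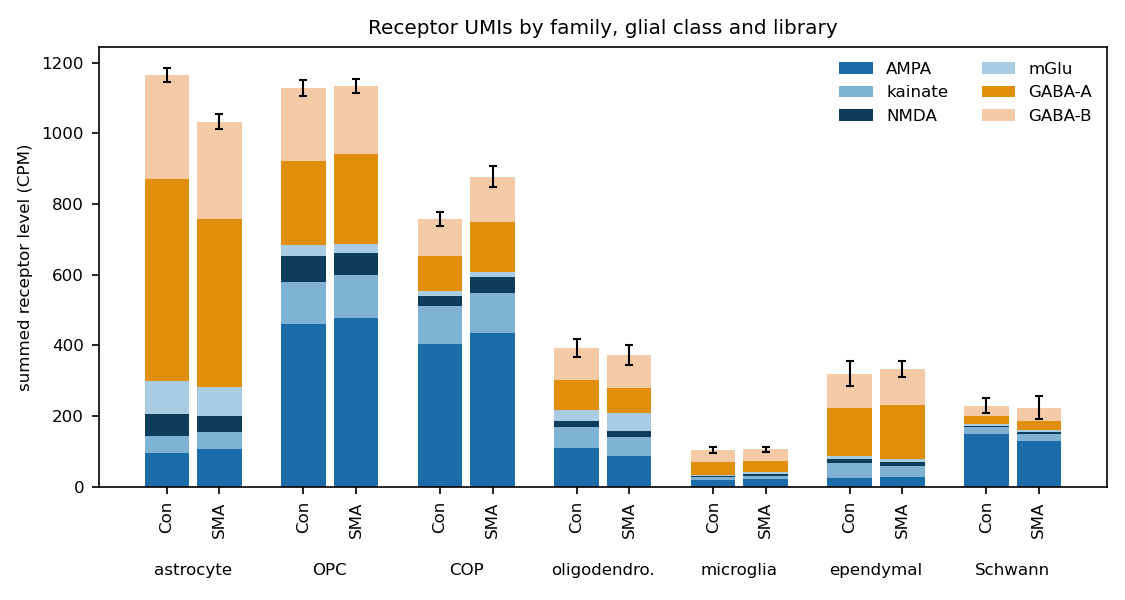
Summed receptor level (CPM) in 7 glial classes and both libraries, split by family, with the 95% Poisson interval of the sum. Orange shades (GABA) make up most of the astrocyte-like and ependymal-like bars, and blue shades (glutamate) most of the OPC-like, COP-like and Schwann-like bars.

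Of the 38 genes, 28 had at least 100 UMIs over the 12 classes that both libraries filled with 50 cells or more, and each of these was assigned to the class with its highest level. Astrocyte-like cells led for 10 genes in both libraries, against a background of 5.8% of all genes. OPC-like cells also led for 10, against 14.2% of all genes, COP-like cells for 3 (8.2%), oligodendrocyte-like cells for Grm4 (1.48%) and ependymal-like cells for Gabrg3 (11.6%). The genes led by astrocyte-like cells were Gabrg1, Gabra2, Gabra4, Gabrb1, Gabbr1, Gabbr2, Grm3, Grm5, Grm7 and Grin2b. Those led by OPC-like cells included Gria1, Gria3, Grik1, Grin1, Grin3a, Gabra3 and Gabrb2, and COP-like cells led for Gria2, Gria4 and Grik3. The COP-like lead over OPC-like cells was only 1.06-fold and 1.07-fold for Gria2 and 1.001-fold and 1.10-fold for Gria4 (SMA and Con). The leading class of Grik2, Grik4 and Grik5 differed between the libraries. Each of the other 10 genes had fewer than 100 UMIs over those classes, and Gabra6 had none.

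AMPA receptors form the main fast glutamate channel, and Gria2 was their chief transcript in glia. Gria2 stood at 318 CPM (299.9 to 336) in SMA and 295 (283 to 307) in Con COP-like cells, and at 299 (288 to 309) and 276 (265 to 287) in OPC-like cells. These neighbouring classes differed by 0.09 (-0.01 to 0.19) and 0.10 (0.01 to 0.18) on the log2 scale. Gria2 made up 62.5% and 60.1% of the AMPA UMIs of OPC-like cells, 73.1% and 72.8% of those of COP-like cells and 62.0% and 60.6% of those of astrocyte-like cells. Schwann-like cells, the myelinating glia of the nerve roots, also held Gria2, at 93.2 (74.1 to 116) and 111 (96.4 to 127) CPM. Gria3 followed in OPC-like cells with 123 and 126 CPM, and Gria4 with 44.1 and 47.3. Gria1 was lowest of the 4, at 12.2 and 10.4 CPM in OPC-like cells.

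The 4 AMPA subunits are close copies, and 1 codon in the stretch that lines the pore sets how much calcium the channel passes. A segment of 45 bases around it is shown from the GENCODE M21 transcripts, with the codon of the pore glutamine in capitals. In Gria2 this codon is normally recoded to arginine by RNA editing, which makes the channel nearly impermeable to calcium.
Gria1: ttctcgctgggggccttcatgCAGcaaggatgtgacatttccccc
Gria2: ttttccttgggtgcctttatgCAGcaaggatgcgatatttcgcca
Gria3: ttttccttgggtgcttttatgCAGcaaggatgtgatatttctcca
Gria4: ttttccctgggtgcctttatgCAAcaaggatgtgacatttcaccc
Against Gria2, the segment differed at 9 bases in Gria1, 3 in Gria3 and 6 in Gria4. The codon lies 8102 bases before the end of the longest Gria2 transcript and 3098 to 3525 bases before that of the other 3, so 3′ tags do not read it, and the share of edited transcripts was not measured.

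Kainate receptor genes were found at moderate levels and mostly in the oligodendrocyte lineage. Grik5, a subunit that forms channels only with a partner, was nearly level across OPC-like (40.0 and 41.7 CPM in SMA and Con), COP-like (42.2 and 39.0) and astrocyte-like cells (32.3 and 29.6). Grik1 stood at 26.8 (23.7 to 30.1) and 29.3 (25.8 to 33.2) CPM in OPC-like cells and was 2.78-fold and 5.01-fold lower in the class that came next. Grik3 was highest in COP-like cells, at 37.7 (31.7 to 44.4) and 34.0 (30.1 to 38.3) CPM, 1.69-fold and 1.79-fold above the OPC-like cells. Grik2 and Grik4 were low, at 18.2 and 16.1 and at 15.04 and 14.6 CPM in OPC-like cells.

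NMDA receptors need the obligatory subunit encoded by Grin1, and it was scarce. Grin1 stood at 17.4 and 18.1 CPM in OPC-like cells, at 6.95 and 7.44 in COP-like cells and at 1.72 and 2.03 in astrocyte-like cells (SMA and Con). Grin3a, a subunit that lowers calcium entry, was more abundant than Grin1 in the OPC-like cells, with 42.0 (38.1 to 46.2) and 49.1 (44.6 to 54.0) CPM, and made up 67.3% and 68.4% of their NMDA UMIs. In astrocyte-like cells Grin3a and Grin2b shared the family, with 46.4% and 53.2% of NMDA UMIs from Grin3a and 46.6% and 42.6% from Grin2b. Grin2b was set apart from the oligodendrocyte lineage, at 22.2 (19.2 to 25.6) and 26.6 (23.7 to 29.8) CPM in astrocyte-like cells, against 4 UMIs in each library's OPC-like cells, a log2 difference of 5.83 and 5.86. Counts between genes of a 3′ library need no correction for length, but capture can differ between transcripts, so ratios between genes are of UMIs and not of molecules.

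Metabotropic receptors separated astrocyte-like from oligodendrocyte-like cells. Grm5, which acts through phospholipase C, stood at 36.8 (32.9 to 41.1) and 48.5 (44.6 to 52.8) CPM in astrocyte-like cells, and Grm3, which lowers cyclic AMP, at 35.6 (31.7 to 39.8) and 36.0 (32.6 to 39.7). Together they gave most metabotropic UMIs of these cells, 46.1% and 51.6% from Grm5 and 44.6% and 38.3% from Grm3. Grm7 added 5.84 and 7.94 CPM. Grm4, another receptor that lowers cyclic AMP, was led by oligodendrocyte-like cells at 40.9 (31.9 to 51.5) and 22.0 (16.4 to 28.8) CPM, 21.9-fold and 19.5-fold above the next class. Within the class it lay in the mature cluster 26 led by Mog and Ermn, with 73.6 and 58.8 CPM, against 8.07 and 10.98 in cluster 6 led by Mobp and Mog. Grm2, Grm6 and Grm8 had between 4 and 31 UMIs over all classes.

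GABA-A receptor genes of the mouse lie in groups along the chromosomes, and 1 group held most GABA-A UMIs of the glia. In GRCm38, Gabrg1, Gabra2, Gabra4 and Gabrb1 lie on chromosome 5 between bases 70751047 and 72149037, and these 4 genes gave 94.8% (94.1 to 95.5) of the GABA-A UMIs of astrocyte-like cells in SMA and 94.6% (94.1 to 95.2) in Con. In OPC-like cells they gave 62.8% (60.9 to 64.6) and 59.1% (57.0 to 61.3). Gabra3 on the X chromosome gave 0.264% and 0.339% in astrocyte-like and 6.46% and 7.85% in OPC-like cells.

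Within the chromosome 5 group Gabrg1 was highest. It stood at 209.7 (200.2 to 219.6) and 192 (184 to 200) CPM in astrocyte-like cells and at 95.04 and 78.2 in OPC-like cells. Gabrb1 stood at 96.2 and 143 CPM in astrocyte-like cells, with ependymal-like cells next at 44.8 and 44.6. Gabra2 had 87.5 and 122 CPM and Gabra4 59.5 and 83.9, with OPC-like cells next in both. Gabra3 was led by OPC-like cells, at 16.5 and 18.6 CPM.

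The 250 bases before the start of each of these 4 genes are shown because the genes share a neighbourhood and a leading class but their starts differ in base composition. The sequences are from RefSeq on GRCm38.p6, 5′ to 3′ on the strand of the gene, with every CG dinucleotide in capitals. They lie at chr5:70842618-70842867 (minus strand, Gabrg1), chr5:71095850-71096099 (minus, Gabra2), chr5:71658309-71658558 (minus, Gabra4) and chr5:71657671-71657920 (plus, Gabrb1).
Gabrg1: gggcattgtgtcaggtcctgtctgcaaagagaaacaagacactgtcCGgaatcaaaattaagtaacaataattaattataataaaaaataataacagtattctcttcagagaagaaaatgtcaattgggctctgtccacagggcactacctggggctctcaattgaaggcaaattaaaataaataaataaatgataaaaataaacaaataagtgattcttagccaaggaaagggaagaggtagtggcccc
Gabra2: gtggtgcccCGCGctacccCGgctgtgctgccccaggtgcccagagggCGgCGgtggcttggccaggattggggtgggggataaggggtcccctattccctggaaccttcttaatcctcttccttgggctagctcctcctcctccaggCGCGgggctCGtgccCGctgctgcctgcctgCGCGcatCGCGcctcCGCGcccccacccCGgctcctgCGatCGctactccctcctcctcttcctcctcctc
Gabra4: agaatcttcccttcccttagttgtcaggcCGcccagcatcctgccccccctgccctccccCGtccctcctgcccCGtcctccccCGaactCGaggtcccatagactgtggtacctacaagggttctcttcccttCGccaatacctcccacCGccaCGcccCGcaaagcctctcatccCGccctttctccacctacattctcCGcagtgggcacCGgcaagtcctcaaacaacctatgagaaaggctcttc
Gabrb1: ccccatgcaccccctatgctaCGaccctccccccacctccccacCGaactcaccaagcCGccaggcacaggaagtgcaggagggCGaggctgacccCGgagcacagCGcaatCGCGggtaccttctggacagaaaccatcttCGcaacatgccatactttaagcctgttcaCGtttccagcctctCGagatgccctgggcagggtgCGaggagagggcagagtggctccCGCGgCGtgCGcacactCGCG
Gabra4 and Gabrb1 lie on opposite strands and overlap at their 5′ ends, with starts 387 bases apart, and the window of Gabrb1 lies inside the annotated Gabra4 gene. The window of Gabrg1 held 1 CG and 35.6% G or C, and 18.8% of the 32851 promoter windows of the same length held 1 or none. The windows of Gabra2 and Gabrb1 held 18 CG each and that of Gabra4 held 12, with 70.0%, 64.4% and 61.2% G or C, against medians of 6 CG and 52.4% over all windows. These are counts of letters and describe no factor that binds there.

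GABA-B receptors need both subunits, yet their transcripts were unequal. Gabbr1 stood at 238 (228 to 248) and 261 (251 to 270.1) CPM in astrocyte-like cells and was found in every glial class, down to 30.7 and 33.6 in microglia-like and 30.7 and 26.7 in Schwann-like cells. Gabbr2, which couples the receptor to G proteins, stood at 37.2 and 32.8 CPM in astrocyte-like cells and at 21.7 and 23.7 in OPC-like cells. Gabbr1 gave 86.5% and 88.8% of the GABA-B UMIs of astrocyte-like cells and 88.6% and 88.5% of those of OPC-like cells.

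Set against OPC-like cells, astrocyte-like cells were at least 2-fold higher in both libraries for 6 of the 23 receptor genes with at least 100 UMIs over both classes, against 9.29% of all genes, and at least 2-fold lower for 10, against 16.8%. The 6 were Gabrg1, Gabra2, Gabra4, Gabrb1, Grm3 and Grin2b. Grm3 stood furthest apart after Grin2b, with a log2 difference of 4.81 in SMA and 3.59 in Con, followed by Gabrb1 with 2.37 and 2.75. The 10 lower genes included Gria1, Gria2, Gria3, Gria4, Grik1, Grik3, Grik4, Grin1 and Gabra3, so all 4 AMPA genes were among them. Grik1 had the lowest log2 difference, -3.96 and -4.21, and Gria2 had -2.19 and -2.25. Gabbr1, Gabbr2, Grik2, Grik5, Grin3a, Grm5 and Gabrg3 were past 2-fold in neither direction in both libraries.

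Astrocyte-like cells were not uniform. The largest of their 5 clusters, cluster 0, was led by Slc7a10, a neutral amino acid transporter of astrocytes, and the next, cluster 10, was led by genes that include Gfap, the intermediate filament of fibrous astrocytes. Gfap stood at 645 (SMA) and 336 (Con) CPM in cluster 0 and at 3424 and 4360 in cluster 10. Among the 13 receptor genes with at least 100 UMIs over these 2 clusters in each library, Gabra2 and Grin3a were at least 2-fold higher in cluster 10 in both libraries, against 1.56% of all genes, and Gabbr2, Grm3 and Grm5 were at least 2-fold lower, against 2.29%. Gabra2 stood at 188 and 231 CPM in cluster 10 and at 60.3 and 83.2 in cluster 0. Grin3a showed the same direction, with 35.0 and 52.7 CPM against 14.9 and 24.8. Gabbr2 had 11.3 and 12.7 CPM in cluster 10 against 50.3 and 49.7 in cluster 0. Grm3 stood at 15.4 and 17.0 against 48.2 and 52.4 CPM, and Grm5 at 18.4 and 18.7 against 47.6 and 70.8.

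Gabrg1 and Gabbr1 also stood lower in cluster 10, at 157 and 122 against 246 and 247 CPM for Gabrg1 and 208 and 205 against 273 and 324 for Gabbr1, but were not past 2-fold in both libraries. Cluster 21, led by Draxin and Dll1, had the lowest summed level of the 5, 584 and 553 CPM, and the lowest Gabra2 (28.2 and 30.6 CPM). Cluster 25, led by Lrtm2 and Ptchd4, stood apart through Gria2 at 169 and 181 CPM and Gria3 at 98.5 and 52.7. That cluster also held 4496 and 4484 CPM of OPC markers, against 1969 and 2296 in cluster 0, and its median score against simulated doublets was 0.95 and 0.93. The part of these in its receptor levels was not tested.

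**Figure D3:**
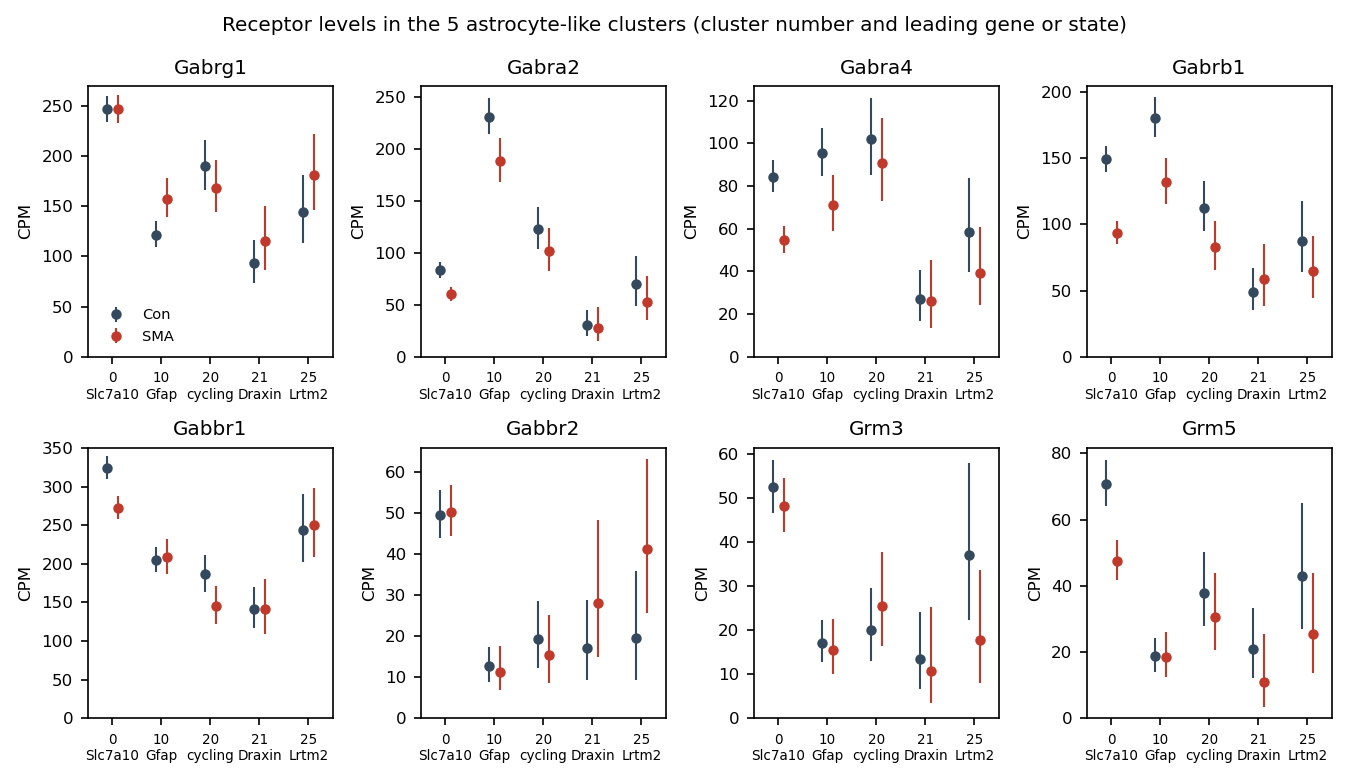
Level (CPM) of 8 receptor genes in the 5 astrocyte-like clusters in Con (dark) and SMA (red), with 95% Poisson intervals. Gabra2 peaks in cluster 10, while Gabbr2, Grm3 and Grm5 are highest in cluster 0, and the SMA points of Gabra4 lie below the Con points in all 5 clusters.

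Along the oligodendrocyte lineage, many receptor genes stood lower in later classes. Between OPC-like and COP-like cells, 10 of the 22 genes with at least 100 UMIs over both classes in each library were at least 2-fold lower in COP-like cells in both libraries, against 8.84% of all genes, 0 were at least 2-fold higher, against 3.95%, and 16 had fewer UMIs. The number lower was 5 with clusters at resolution 2 and 6 with equal weight for each cell. COP-like cells held 3742843 (SMA) and 8199638 (Con) UMIs, against 10237316 and 8694876 in OPC-like cells. Genes high in OPC-like cells therefore passed the minimum more readily, above all in SMA. The 10 included Gria1, Grik1, Grin1, Grm5, Gabra2, Gabra3, Gabra4 and Gabbr2. On the log2 scale the difference of COP-like from OPC-like cells was -2.25 (SMA) and -2.70 (Con) for Gabra4 and -1.48 and -2.32 for Grik1. Gria2, Gria4, Grik2 and Grik5 differed from the OPC-like level by -0.13 to 0.13 log2 units. The neuron markers summed to 574 (SMA) and 667 (Con) CPM in OPC-like cells and to 354 and 278 in COP-like cells. The part of neuronal RNA in these levels was not tested.

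The COP-like clusters also differed from each other. Cluster 4 was led by Gpr17 and Neu4, which mark newly committed cells, and cluster 11 by Enpp6, which marks cells about to form myelin. Cluster 11 held 8117 (SMA) and 9726 (Con) CPM of COP markers but also 25310 and 28955 of oligodendrocyte markers. Cluster 4 held 3606 and 5011 CPM of oligodendrocyte markers, and oligodendrocyte-like cluster 6 held 12753 and 14295. Cluster 11 could thus also be placed with the oligodendrocyte-like cells, and COP-like levels and the steps along the lineage depend on its placement. Of 8 genes with at least 100 UMIs over both clusters in each library, Grin3a, Gabrg1, Gabbr1 and Gria3 were at least 2-fold lower in cluster 11 in both libraries, against 8.24% of all genes, and 0 were higher, against 5.34%. Grin3a stood at 47.2 and 38.9 CPM in cluster 4 and at 4.17 and 3.32 in cluster 11. Gria2 went the other way, with 302 and 280 CPM in cluster 4 and 350.2 and 309 in cluster 11, and Grik3 had 28.7 and 21.6 against 56.7 and 45.7. In cluster 11 Gria2 stood at the level of OPC-like cluster 2 (339 and 310.2 CPM), while Gabbr1 stood at 48.4 and 59.0 CPM against 212 and 229.

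Oligodendrocyte-like cells held less of the AMPA transcripts. Of 8 genes read against COP-like cells, Gria2, Gria3, Gria4, Grik3 and Grin3a were at least 2-fold lower in both libraries, against 12.2% of all genes, 0 were higher, against 2.45%, and Gabrg1, Grik5 and Gabbr1 were neither. Against OPC-like cells 13 of 19 were lower and 0 higher, beside 30.7% and 3.43% of all genes. Oligodendrocyte-like cells held 1737564 (SMA) and 2365347 (Con) UMIs, against 3742843 and 8199638 in COP-like and 10237316 and 8694876 in OPC-like cells. Most genes therefore passed the minimum through the larger class, and genes high in oligodendrocyte-like cells could seldom be read. The counts of 0 higher are not read as a result about these genes. Grm4 had fewer than 100 UMIs in each library in both comparisons and was not read. It had 71 and 52 UMIs in oligodendrocyte-like, 7 and 8 in COP-like and 9 and 6 in OPC-like cells (SMA and Con). Its log2 difference was 4.45 and 4.49 over COP-like cells and 5.54 and 4.99 over OPC-like cells. In the mature cluster 26, Gria2 stood at 16.1 and 34.9 CPM and Gria3 at 1.15 and 3.67. Gabbr1 had 85.1 and 64.3 CPM there. Cluster 6 held 93.3 and 68.1 CPM of Gria2, but its cells had medians of only 2348 and 1762 UMIs and also held 1861 and 1389 CPM of astrocyte markers, against 231 and 353 in cluster 26, and the part of other cells' RNA in cluster 6 was not tested.

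**Figure D4:**
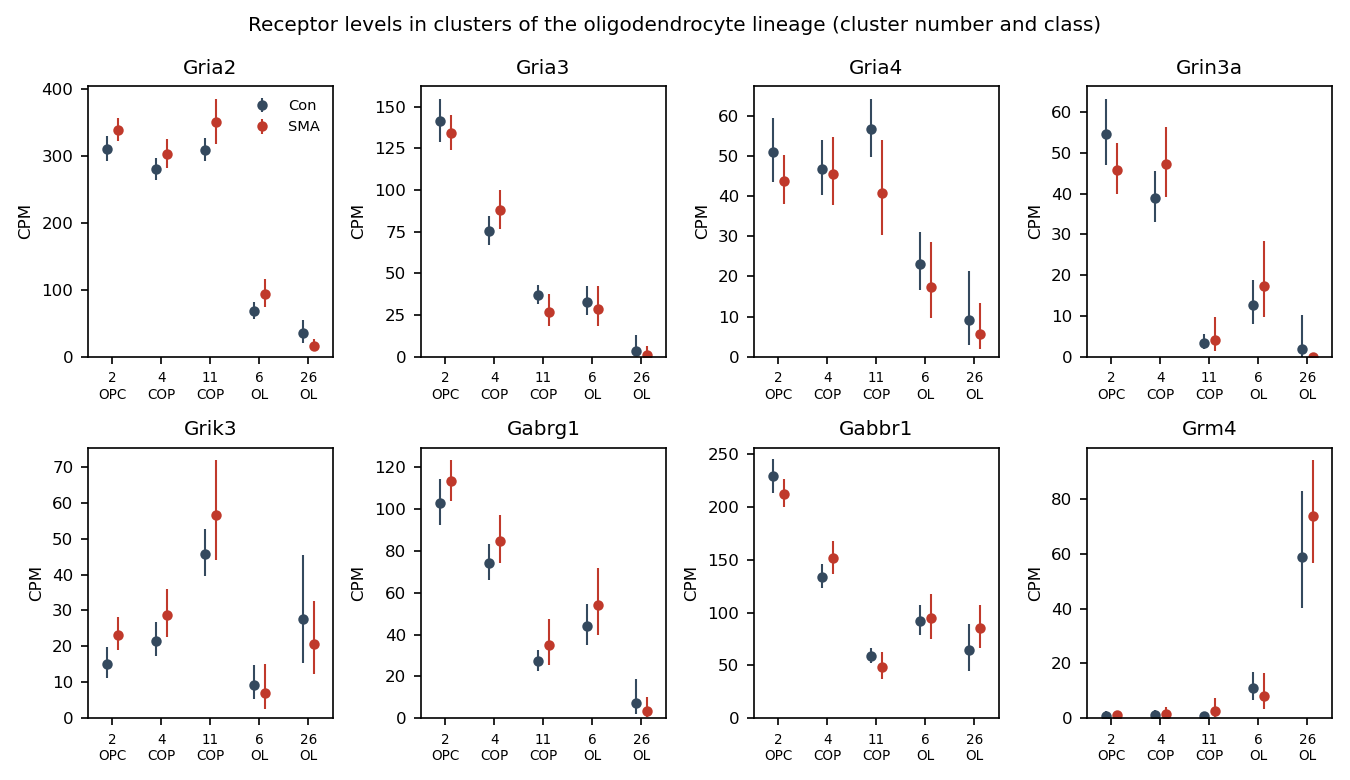
Level (CPM) of 8 receptor genes in the largest OPC-like cluster, both COP-like clusters and both oligodendrocyte-like (OL) clusters in Con (dark) and SMA (red), with 95% Poisson intervals. Grin3a and Gabrg1 drop between COP-like clusters 4 and 11, Gria2 is still high in cluster 11, and Grm4 is highest in cluster 26.

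Dividing cells were compared with the other cells of their class. In OPC-like cells 0 of 19 receptor genes read were past 2-fold in both libraries, against 2.62% of all genes higher and 0.615% lower, and 0 of 15 were in astrocyte-like cells, against 2.77% and 0.441%. In microglia-like cells 1 gene could be read and was not past 2-fold, against 2.55% and 0.92%. Cluster 7, which was led by replication genes but did not pass the rule for cycling, counted among the other OPC-like cells. In the cycling OPC-like clusters 17 of the 19 stood lower in both libraries, beside 58.0% of all genes. Gria2 stood at 227 and 217 CPM there against 332 and 305 in the other clusters, a log2 difference of -0.55 (-0.67 to -0.43) in SMA and -0.49 (-0.62 to -0.36) in Con. Gabbr1 differed by -0.67 and -0.57 and Gabrg1 by -0.53 and -0.54. Gabra4 went the other way, at 20.2 and 22.3 against 14.8 and 17.3 CPM, with log2 intervals that included 0, and among the cycling clusters it stood at 38.0 and 40.4 CPM in the S-phase cluster 16, led by histone genes, and at 7.82 and 7.06 in the mitotic cluster 8, led by Cdc25c and Cenpa.

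Microglia-like cells held few receptor transcripts outside 1 cluster. In cluster 1, the largest, Gabbr1 stood at 20.0 and 24.1 CPM, Gria2 at 2.26 and 3.66 and Gabrg1 at 3.66 and 5.78. In cluster 23, led by Spp1, the same genes stood at 95.3 and 88.8, 79.8 and 53.3, and 49.8 and 37.6 CPM. This cluster also held 2238 and 2449 CPM of astrocyte markers and 1445 and 1381 of OPC markers, against 485 and 435, and 111 and 140 in cluster 1. Its median doublet score was 0.94 and 0.93, against 0.28 and 0.30 in cluster 1, and the part of RNA of other cells was not tested. Left out together with astrocyte-like cluster 25, the summed level of microglia-like cells was 50.4 CPM in SMA and 56.7 in Con.

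Ependymal-like cells, which line the central canal, held mostly Gabbr1, Gabrb1 and Gabrg1. Gabbr1 stood at 100.02 (88.0 to 113) and 93.0 (75.3 to 114) CPM, Gabrb1 at 44.8 and 44.6 and Gabrg1 at 36.5 and 31.0. Gabrg3, another gamma subunit, was led by this class at 21.8 (16.4 to 28.4) and 22.3 (14.1 to 33.4) CPM. The neighbouring astrocyte-like level of Gabrg3, 13.3 and 19.2 CPM, lay outside the interval in SMA and inside it in Con.

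Between SMA and Con, 0 of the 38 genes were past 2-fold with at least 100 UMIs in any of the 7 glial classes. The share of all genes past 2-fold was 0.819% in astrocyte-like, 0.425% in OPC-like, 1.04% in COP-like, 3.07% in oligodendrocyte-like, 0.479% in microglia-like, 0.474% in ependymal-like and 2.29% in Schwann-like cells. The number of receptor genes with at least 100 UMIs was 18, 23, 14, 4, 5, 3 and 1 in these classes in turn. In astrocyte-like cells 15 more had 1 to 99 UMIs and 5 had 0 (Grin2d, Grin3b, Grm2, Grm6 and Gabra6), and in OPC-like cells 12 had 1 to 99 and 3 had 0 (Grin2c, Grm6 and Gabra6). The summed receptor level was lower in SMA in astrocyte-like cells by a log2 ratio of -0.17 (-0.21 to -0.13) and higher in COP-like cells, at 0.21 (0.15 to 0.27). The 2 COP-like clusters were filled unequally by the libraries. The summed level was 975 CPM in SMA and 868 in Con in cluster 4, and 668 and 654 in cluster 11. In OPC-like cells the log2 ratio was 0.01 (-0.03 to 0.05), and in oligodendrocyte-like, microglia-like, ependymal-like and Schwann-like cells the intervals included 0. With 1 library a genotype, a difference between pools, litters or captures cannot be told apart from one between genotypes.

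In astrocyte-like cells 6 receptor genes had positive and 12 negative log2 ratios, with a median of -0.20 beside -0.04 over all 10254 genes read. The genes that stood lowest in SMA were 3 of the chromosome 5 GABA-A group, together with Grin3a and Gabrg3. The log2 ratio was -0.57 (-0.70 to -0.45) for Gabrb1, -0.50 (-0.65 to -0.34) for Gabra4 and -0.48 (-0.61 to -0.35) for Gabra2, and 5% of all genes lay below -0.48. The fourth gene of the group, Gabrg1, had a ratio of 0.13 (0.04 to 0.22). Gabrg1 made up 43.9% (42.4 to 45.4) of GABA-A UMIs in SMA and 33.5% (32.4 to 34.7) in Con, while Gabrb1 made up 20.1% and 25.1%. The 14 neuron markers, a measure of neuronal RNA, summed to 173 CPM in SMA and 137 in Con astrocyte-like cells, and their part in these ratios was not tested.

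Within clusters the direction held for some of these genes. Grin3a was lower in SMA in 3 of 5 astrocyte-like clusters, with log2 ratios from -1.25 to 0.31. Gabrg3 was lower in 2 and higher in 2, and in cluster 21 it had 0 UMIs in SMA and 6 in Con. Gabra2 and Gabra4 were lower in SMA in 5 of 5 astrocyte-like clusters, with log2 ratios from -0.46 to -0.12 and from -0.63 to -0.05. Gabrb1 was lower in 4 of 5, from -0.67 in cluster 0 to -0.43 in cluster 25, and stood at 0.26 (-0.50 to 1.00) in cluster 21. In the 2 largest clusters the intervals of all 3 lay below 0. Gabrb1 had -0.67 (-0.84 to -0.51) in cluster 0 and -0.45 (-0.68 to -0.22) in cluster 10. Gabrg1 had -0.00 (-0.11 to 0.11) and 0.37 (0.14 to 0.60) in the same clusters. In OPC-like cells, where these genes are less abundant, Gabra2 had a ratio of 0.48 (0.21 to 0.74) and was higher in SMA in 5 of 5 clusters, while Gabra4 and Gabrb1 had -0.20 (-0.52 to 0.12) and -0.20 (-0.50 to 0.10).

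Among the glutamate receptors of astrocyte-like cells, Grin3a had 22.1 CPM in SMA and 33.3 in Con, a log2 ratio of -0.59 (-0.85 to -0.34), and Grm5 had -0.40 (-0.60 to -0.20). Grm3, the other main metabotropic gene, had -0.02 (-0.23 to 0.20). Gria3 was the gene furthest in the other direction, with 17.7 CPM in SMA and 10.9 in Con and a log2 ratio of 0.70 (0.35 to 1.05). Of its 155 SMA and 124 Con UMIs, 50 and 27 came from cluster 25, the small cluster with OPC markers, and in cluster 0 its ratio was 0.77 (0.16 to 1.39).

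In OPC-like cells the median log2 ratio was -0.06 beside -0.02 over all genes. Gabrg1 had 0.28 (0.14 to 0.42) and Gria2 0.11 (0.04 to 0.19), and Grm5 had -0.42 (-0.70 to -0.14). Grm5 was lower in SMA in 3 of 5 clusters, with log2 ratios from -0.88 in cluster 8 to 0.91 in cluster 27, and only in cluster 7, led by genes of DNA replication, did the interval leave out 0 (26.9 CPM in SMA and 45.7 in Con). Gabbr1 was lower in SMA in 5 of 5 OPC-like clusters, with a log2 ratio of -0.11 (-0.21 to -0.01) over the class.

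In COP-like cells 11 of 14 genes had positive ratios, with a median of 0.21 beside 0.04 over all genes, and Grin3a stood at 0.70 (0.35 to 1.04). Gabrg1 had 0.46 (0.23 to 0.69), Gabbr1 with 0.31 (0.14 to 0.48) and Gria3 with 0.30 (0.07 to 0.52), and Gria4 had -0.23 (-0.50 to 0.03). The clusters of this class were not equally filled, with 397 SMA and 560 Con cells in the earlier cluster 4 and 113 and 396 in cluster 11. Within cluster 4 the ratio of Grin3a was 0.28 (-0.08 to 0.63) and that of Gabrg1 0.20 (-0.06 to 0.45). Gabbr1 and Gria3 had 0.18 (-0.02 to 0.37) and 0.22 (-0.04 to 0.47) in cluster 4 but -0.29 (-0.73 to 0.13) and -0.47 (-1.07 to 0.09) in cluster 11. With equal weight for each cluster the ratio over the class was 0.28 for Grin3a, 0.0500 for Gabbr1 and 0.0273 for Gria3, and with shared barcodes kept it was 0.11 for Grin3a, 0.11 for Gabrg1 and 0.0322 for Gabbr1.

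In oligodendrocyte-like cells the median log2 ratio of all genes was 0.18, so values there are read against it. Grm4 had a log2 ratio of 0.89 (0.36 to 1.44). Cluster 26, where this gene lies, held 60 of 269 SMA and 44 of 592 Con cells, and within it the ratio was 0.32 (-0.31 to 0.98). The sign over the class also turned, to -0.13 with no upper limit on genes per cell and to -0.04999 with equal weight for each cell. Gabbr1 had 89.8 CPM in SMA and 85.8 in Con, a log2 ratio of 0.07 (-0.25 to 0.37), and Gria2 had -0.15 (-0.53 to 0.24).

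**Figure D5:**
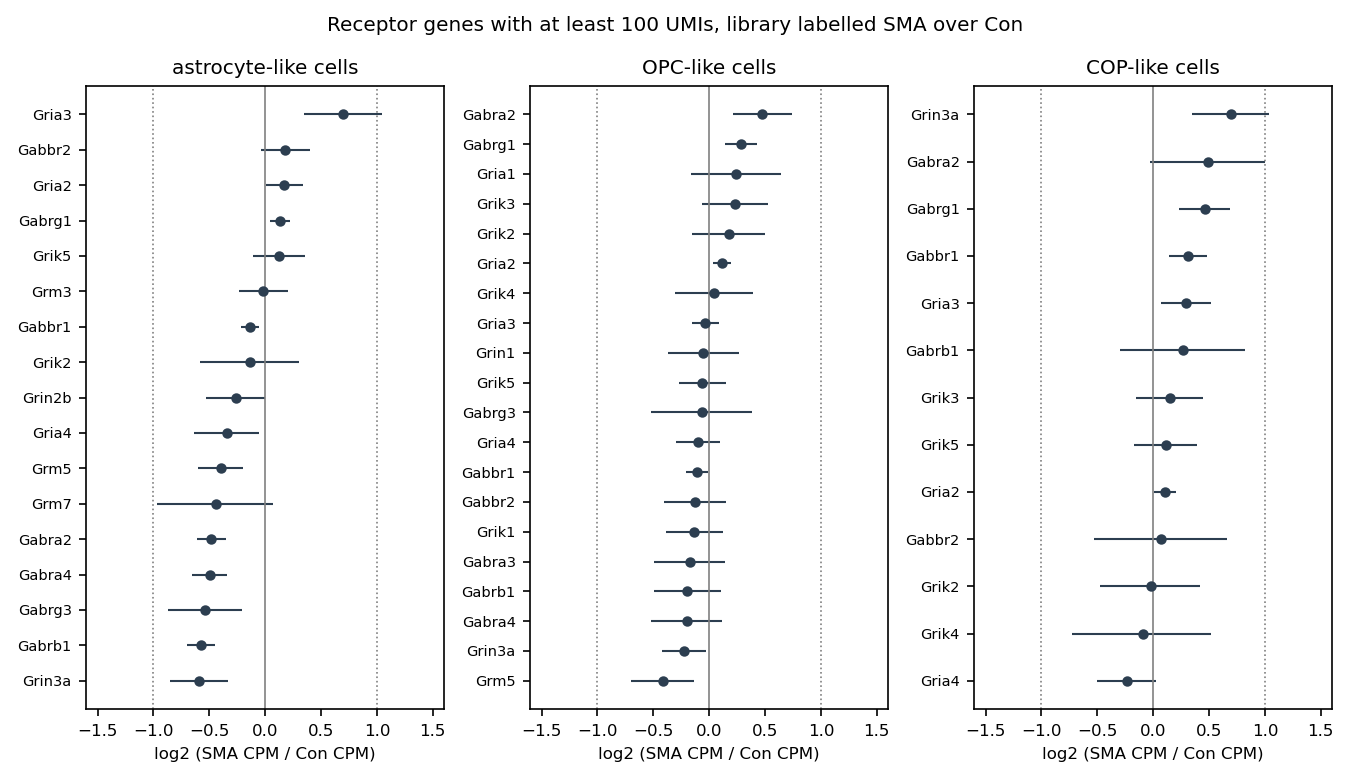
Log2 ratio of SMA over Con level for the receptor genes reported with at least 100 UMIs in astrocyte-like, OPC-like and COP-like cells, with 95% intervals for counting error. No point lies beyond the dotted lines at 2-fold, Gabrb1, Gabra4 and Gabra2 lie left of 0 in astrocyte-like cells, and Grin3a lies furthest right in COP-like cells.

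Genes that act with these receptors were taken from 8 lists of 50 genes in all. Added up over the lists, 24 entries with at least 100 UMIs could be read in astrocyte-like, 34 in OPC-like and 21 in COP-like cells. Shisa7 is listed both as an AMPA auxiliary subunit and as a GABA-A partner and counts in each. Between SMA and Con, 0 were past 2-fold in any glial class. Among auxiliary subunits of AMPA receptors, Cacng4 stood at 125 and 112 CPM and Cnih2 at 107 and 94.1 in OPC-like cells. In astrocyte-like cells Shisa9 stood at 71.1 and 80.2 CPM and Gsg1l at 34.1 and 36.6. The kainate auxiliary subunits Neto1 and Neto2 stood at 52.9 and 52.9 and at 37.5 and 41.5 CPM in OPC-like cells, and Neto2 had a log2 ratio of -0.48 (-0.78 to -0.20) in astrocyte-like cells. The delta receptor gene Grid1 stood at 20.1 and 20.4 CPM in OPC-like cells.

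Scaffolds of glutamate receptors were moderate, with Homer2 at 40.0 and 47.8 and Dlg4, which encodes PSD-95, at 39.7 and 38.3 CPM in OPC-like cells. Gabarap, a trafficking protein that also serves autophagy, stood at 568 and 573 CPM in astrocyte-like cells, and Gphn, the gephyrin scaffold of inhibitory synapses, at 65.7 and 78.4 in OPC-like cells. Kctd12, a partner of GABA-B receptors, stood at 62.8 and 62.7 CPM in astrocyte-like cells, while Kctd16 was the highest of these partners in OPC-like cells with 31.3 and 23.8. Glrb, the beta subunit of glycine receptors, stood at 43.2 and 48.1 CPM in OPC-like and 66.3 and 86.0 in COP-like cells. Of the other GABA-A subunits Gabrq was highest, at 7.62 and 6.79 CPM in OPC-like cells.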

How the data were processed

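Gene-by-barcode matrices of UMI counts were deposited, 1 for each genotype, with totals of 85872075 (SMA) and 97894084 (Con) UMIs. Per the file headers and the labels, the authors made these counts with Cell Ranger 4.0.0 on mm10 and analysed them with Seurat 3.2.2. The deposited counts are not normalised, and reads without a gene are not in them. The remaining columns hold gene and barcode names.

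Barcodes with 200 to 4000 genes and under 10% mitochondrial UMIs were kept, SMA barcodes also listed in the Con library were left out, and 1 cluster with over 30% ribosomal protein UMIs was removed (0 SMA and 1337 Con cells). Counts per cell were scaled to 10000 and log transformed. The 2000 most variable genes, without the receptor genes and their partners, gave 30 principal components, a graph of 20 neighbours and 29 clusters at resolution 1 (Python 3.11.15, numpy 2.4.6, scipy 1.17.1, scikit-learn 1.9.0, igraph 0.11.9). Clusters were named from lists of markers for 16 classes, 2 stayed unnamed, and doublets were treated by the upper gene limit alone. For CPM, the UMIs of a gene in all cells of a class were added up in each library and divided by all UMIs of those cells. A gene counted as past 2-fold only with at least 100 UMIs over both libraries. Clusters were called cycling from 13 proliferation genes. Thinned shares drew 1000 UMIs per cell.

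With 1 library per genotype no test was run. The ratio, interval and call rule were tried on simulated astrocyte-like counts with known changes and counting error alone, for well-counted genes only. That check does not cover the smaller classes, genes near the minimum of 100 UMIs or differences between pools. The members, markers and lists were chosen with earlier results of these data known. Genes were named where a class held at least 100 UMIs of them, and from each partner list the 2 highest in astrocyte-like or OPC-like cells. Symbols of all 38 genes matched GENCODE M21 by identifier, and 26 had a promoter window in the RefSeq table. Levels of genes that overlap another gene (Gabra4 and Gabrb1, Grin1 and Grin1os, Grin3a and Ppp3r2) rest on the strand and position of their 3′ tags. Values of some genes are not reported here, although counts and sums include them.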

Additional observations from a re-analysis of the deposited data

Results flagged for a closer look

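Receptor genes whose SMA over Con ratios pointed in opposite directions in different glial classes, each with a counting interval that left out 0, are listed here. The difference between the classes was not tested, since each genotype was 1 library. Gabra2 had a log2 ratio of -0.48 (-0.61 to -0.35) in astrocyte-like cells and 0.48 (0.21 to 0.74) in OPC-like cells. Grin3a had -0.59 (-0.85 to -0.34) in astrocyte-like cells, -0.23 (-0.42 to -0.03) in OPC-like cells and 0.70 (0.35 to 1.04) in COP-like cells. Gabbr1, which is abundant in all 3 classes, had smaller ratios of -0.13 (-0.21 to -0.05), -0.11 (-0.21 to -0.01) and 0.31 (0.14 to 0.48) in the same order. Summed over the 38 genes, the log2 ratio was -0.17 (-0.21 to -0.13) in astrocyte-like cells and 0.21 (0.15 to 0.27) in COP-like cells. With equal weight for each cluster the COP-like sum was 0.11. In COP-like cells the share of the earlier cluster 4 also differed between the libraries, and within that cluster Grin3a had 0.28 (-0.08 to 0.63) and Gabbr1 0.18 (-0.02 to 0.37). In cluster 11 Gabbr1 had -0.29 (-0.73 to 0.13), the sign it had in astrocyte-like and OPC-like cells. The COP-like ratio of Grin3a was 0.11 with shared barcodes kept, 0.27 at 20% mitochondrial UMIs and 0.28 with equal weight for each cluster, and that of Gabbr1 was 0.0322 with shared barcodes kept and 0.0500 with equal clusters.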

How the results depend on the processing

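No paired analysis was possible because each genotype was 1 library, and for the same reason leaving out a replicate was not possible. Equal weight for each cluster and leaving out the clusters with a median doublet score above 0.9 (23 and 25) were chosen after seeing the data, as were all alternatives for the lineage and cycling counts.

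The astrocyte-like sum kept its direction in 11 of 11 alternatives, from -0.21 (5% of cells with the highest doublet score left out) through -0.13 (centring on the median gene) to -0.12 (equal clusters). The COP-like sum stayed positive, at 0.12 with shared barcodes kept and 0.11 with equal clusters. The OPC-like sum was 0.0486 at 20% mitochondrial UMIs and -0.0322 with equal clusters. The oligodendrocyte-like sum depended most on the setting, at -0.28 with shared barcodes, -0.42 at 20% mitochondrial UMIs, -0.25 at resolution 2, 0.25 with equal weight per cell, -0.23 for cells of at least 5000 UMIs and -0.26 with centring. Microglia-like cells gave -0.18 without the doublet-scored cells and -0.17 without clusters 23 and 25, and ependymal-like cells -0.27 with no upper gene limit. Oligodendrocyte-like genes past 2-fold numbered 3 at 20% mitochondrial UMIs, 2 at resolution 0.5 and 1 for cells of at least 5000 UMIs. With no minimum, genes past 2-fold numbered 4 in astrocyte-like, 2 in OPC-like, 4 in COP-like, 3 in oligodendrocyte-like, 7 in microglia-like, 10 in ependymal-like and 7 in Schwann-like cells, all with under 100 UMIs. Genes lower in COP-like than OPC-like cells numbered 5 at resolution 2 and 6 with equal weight per cell. Those lower in oligodendrocyte-like than COP-like cells numbered 2 at 20% mitochondrial UMIs and at resolution 0.5, and 1 was higher with no upper gene limit. Cycling OPC-like clusters had 1 gene past 2-fold for cells of at least 5000 UMIs. The cause of these moves was not tested. Of 748 values for single genes, 713 lay inside the interval reported, and 69 had another sign than the value reported, 66 of them where that value's interval included 0. The 3 where it left out 0 were Grm4 in oligodendrocyte-like cells, at -0.13 with no upper gene limit and -0.04999 with equal weight per cell, and Gria2 in astrocyte-like cells, at -0.0205 with equal clusters. In astrocyte-like cells Gabra2 ranged from -0.51 to -0.32, Gabra4 from -0.53 to -0.38 and Gabrb1 from -0.61 to -0.42. For the 10 genes with under 100 UMIs over the compared classes, a 2-fold difference was not called at this depth.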

Other observations

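An unnamed cluster of 241 SMA and 134 Con cells, led by Pdyn and Calb1, differed in receptor levels from the named ependymal-like cluster. It held 5128 and 5526 CPM of ependymal markers and 2101 and 2196 of astrocyte markers. Gabbr1 stood at 146 and 157 CPM there, Gabrb1 at 108 and 135 and Gabra2 at 106 and 96.8, against 24.2 and 19.4 CPM of Gabra2 in the named ependymal-like cluster. Gabrg3 stood at 2.62 and 2.31 CPM in the unnamed cluster and at 21.8 and 22.3 in the named one. Astrocyte-like cells held 87.5 and 122 CPM of Gabra2, 96.2 and 143 of Gabrb1 and 13.3 and 19.2 of Gabrg3. The Gabra2 and Gabrb1 levels of the unnamed cluster were thus near those of astrocyte-like cells, and its Gabrg3 level was not.

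Neuron-like cells numbered 43 in SMA and 26 in Con, too few to be compared between the libraries. All of them lay in cluster 28, led by Pkd2l1, Snhg11 and Cartpt. Gabbr1 stood at 213 and 250.4 CPM and Gria2 at 116 and 98.6. The Gria2 level of OPC-like and COP-like cells stood above that of this cluster in both libraries. Other kinds of spinal neuron were not compared.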
